A study of Mus musculus with 6 samples.

Results

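The genes described here are 10 members of the Notch signalling pathway, chosen by name: the receptors Notch1, Notch2 and Notch3, the ligands Jag1 and Dll1, the glycosyltransferase Lfng, and the target genes Hes1, Hes5, Hey1 and Heyl. They are 10 of the 13965 rows of an expression table of whole embryonic mouse kidneys. Each of the 10 has a row of its own, not joined with an overlapping gene, and each passed the filter on low values. In mutant kidneys the 3 receptors and Jag1 were 1.15-fold to 1.36-fold higher than in control kidneys when the kidneys were paired by litter. None of these 4 was called without the pairing, or after a correction for transcript length and GC content. The target genes did not pass the test in either direction.

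Notch receptors are single-pass membrane proteins that bind Delta-like and Jagged ligands on a neighbouring cell. Binding exposes the receptor to cleavage by an ADAM metalloprotease and then by gamma-secretase, and the freed intracellular domain joins the DNA-binding protein Rbpj and a Mastermind co-activator to switch on genes of the Hes and Hey families. In the forming nephron the pathway is known for patterning: Notch2, with a lesser part for Notch1, is needed in the mouse for progenitors to make podocytes and proximal tubule, and Jag1, Dll1, Lfng and Hes5 are expressed in the vesicles that form as progenitors turn into epithelium. Notch3 and Heyl are best known from pericytes and vascular smooth muscle, and Hey1 from endothelium.

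RNA was sequenced from 3 mutant and 3 control kidney samples at embryonic day 16. Mutant kidneys were miR-17~92 flx/flx and carried Six2-TGC, a transgene that expresses Cre in nephron progenitors, so that the floxed microRNA cluster is removed from them and their descendants. The transgene is known to spare stroma, endothelium and ureteric bud. Control kidneys are labelled WT, miR-17~92 flx/+, with 1 floxed copy and no transgene named. What the transgene does and what the deletion does therefore cannot be told apart. Each of 3 litters gave 1 mutant and 1 control library, and no label says whether kidneys were pooled. Because whole kidneys were used, fewer cells of a type and less RNA per cell cannot be told apart in any value below.

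The 6 libraries held between 43804667 and 54913325 reads, and CPM values are reads scaled to each library's total, so that 1 CPM stood for 43.8 to 54.9 reads. The row that joins the host transcript Mir17hg with the microRNA genes it overlaps held 53.6, 39.8 and 44.6 CPM in mutant libraries 1, 2 and 3 and 34.1, 36.4 and 23.0 CPM in control libraries 1, 2 and 3. The row was called higher in the mutant paired by litter (log2 change 0.57, adjusted p = 0.0292), without overlap, and not unpaired (0.222), so it did not fall in the kidneys labelled as lacking the cluster. It does not separate the floxed segment from the rest of the transcript, so it cannot check the labels. Cited1, a marker of uncommitted progenitors, fell to 10.9 ± 1.87 CPM in mutant kidneys, against 47.5 ± 8.73 CPM in control kidneys (SD, n = 3 each; adjusted p = 1.89e-05 by limma), without overlap. All 10 nephron progenitor markers, all 10 podocyte markers and all 10 early nephron markers listed were measured, and 8 of 10 adrenal and 8 of 10 skeletal muscle markers had no row.

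Of the mature microRNAs of the deleted cluster 6 were taken, a single form from each microRNA gene, and any other forms were not searched. The 6 have 4 seeds (bases 2 to 8, in capitals, the part that pairs with a target message). They are shown because a message that holds the complement of a seed could be bound by them. Sequences are from RefSeq, GRCm38.p6, plus strand of chromosome 14.
miR-17-5p: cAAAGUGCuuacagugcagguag
miR-20a-5p: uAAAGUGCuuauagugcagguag
miR-18a-5p: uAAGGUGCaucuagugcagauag
miR-19a-3p: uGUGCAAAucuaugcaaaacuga
miR-19b-3p: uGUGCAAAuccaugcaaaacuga
miR-92a-3p: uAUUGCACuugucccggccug

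The 3′ UTR (the part of a message after its stop codon) of the longest coding transcript of each Notch pathway gene was searched for the 7 bases complementary to each seed. Of the 10 genes 1 held a match, Notch2, with a single match to the miR-18a seed at bases 730 to 736 of a 3′ UTR of 2917 bases. The match, in capitals, is followed by an A, the base that often flanks such sites.
Notch2 3′ UTR: cttctgaacctGCACCTTaatttctctc
Among 1866 tested genes with a 3′ UTR of similar length, 57.5% held at least 1 match to the 4 seeds. Jag1, with a 3′ UTR of 1568 bases, held none, and 38.4% of 2230 genes of similar 3′ UTR length held at least 1. Heyl, with a 3′ UTR of 3245 bases, held none either, against 60.8% of 1705 genes of similar length. Over all 13348 tested genes with a 3′ UTR, 33.6% held at least 1. A match describes the letters only and does not show that a message is bound.

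Promoters (250 bases before to 50 after a gene's start, RefSeq, GRCm38.p6) were at hand for 7 of the 10 genes. They were searched on both strands for GTGGGAA, the letters that Rbpj is known to favour, and for TGGGAA, which lies inside it. GTGGGAA was found in 6.38% of 32851 promoters and TGGGAA in 25.6%. Hes5 held GTGGGAA 2 times, at 83 bases before the start and, on the opposite strand, at 226 bases, and Lfng held it once, 109 bases before the start, with a further TGGGAA at 135 bases on the opposite strand. The entries of Notch1, Notch2, Notch3, Jag1 and Dll1 held neither. The stretches around the matches are shown because Hes5 and Lfng were the only genes of the 7 searched that held GTGGGAA. No promoter entry was at hand for Hes1, Hey1 and Heyl, which were not searched. Whether a match goes with a change in mutant kidneys was not tested.
Hes5 promoter, chr4:154960673-154960972: gggcgagcgcgTTCCCACagcccggaca
Lfng promoter, chr5:140607091-140607390: ccgtatcccacGTGGGAAggagagatct
Capitals mark the match, for Hes5 the one at 226 bases, and both stretches read along the strand of the gene, which is the plus strand.

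All 3 receptor genes rose in mutant kidneys when paired by litter, Notch2 the most. Notch2 (chr3:98013527-98150361, GRCm38), the receptor with the main part in nephron patterning, stood at 151, 158 and 160 CPM in mutant libraries 1, 2 and 3, against 101, 124 and 121 CPM in control libraries 1, 2 and 3. Every mutant library lay above every control library, as the plot of CPM by library shows. The groups averaged 156 ± 4.39 CPM in mutant and 115 ± 12.3 CPM in control kidneys (SD, n = 3 each), a log2 change of 0.44 (SE 0.053, 95% interval 0.32 to 0.56) and limma gave an adjusted p of 0.00332 with the libraries paired by litter and 0.0760 unpaired.

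Notch1 (chr2:26457903-26516663), the receptor shared by endothelium and early nephron, stood at 91.3, 102 and 113 CPM in mutant libraries and 66.9, 89.0 and 95.1 CPM in control libraries of litters 1, 2 and 3. It was higher in the mutant of each litter, but mutant library 1 lay below control library 3, so the groups overlap. The log2 change was 0.30 (SE 0.058), with an adjusted p of 0.0177 paired and 0.448 unpaired. Notch3 (chr17:32120820-32166852), the receptor of pericytes and smooth muscle, stood at 78.4, 107 and 98.9 CPM in mutant libraries and 69.3, 90.1 and 86.6 CPM in control libraries. Both libraries of litter 1 were the lowest of their group for Notch1 and Notch3. The within-litter differences of Notch3 were even, at 0.18, 0.25 and 0.19 on the log2 scale in litters 1, 2 and 3, and its log2 change of 0.21 (SE 0.047) had an adjusted p of 0.0293 paired and 0.616 unpaired.

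**Figure D1:**
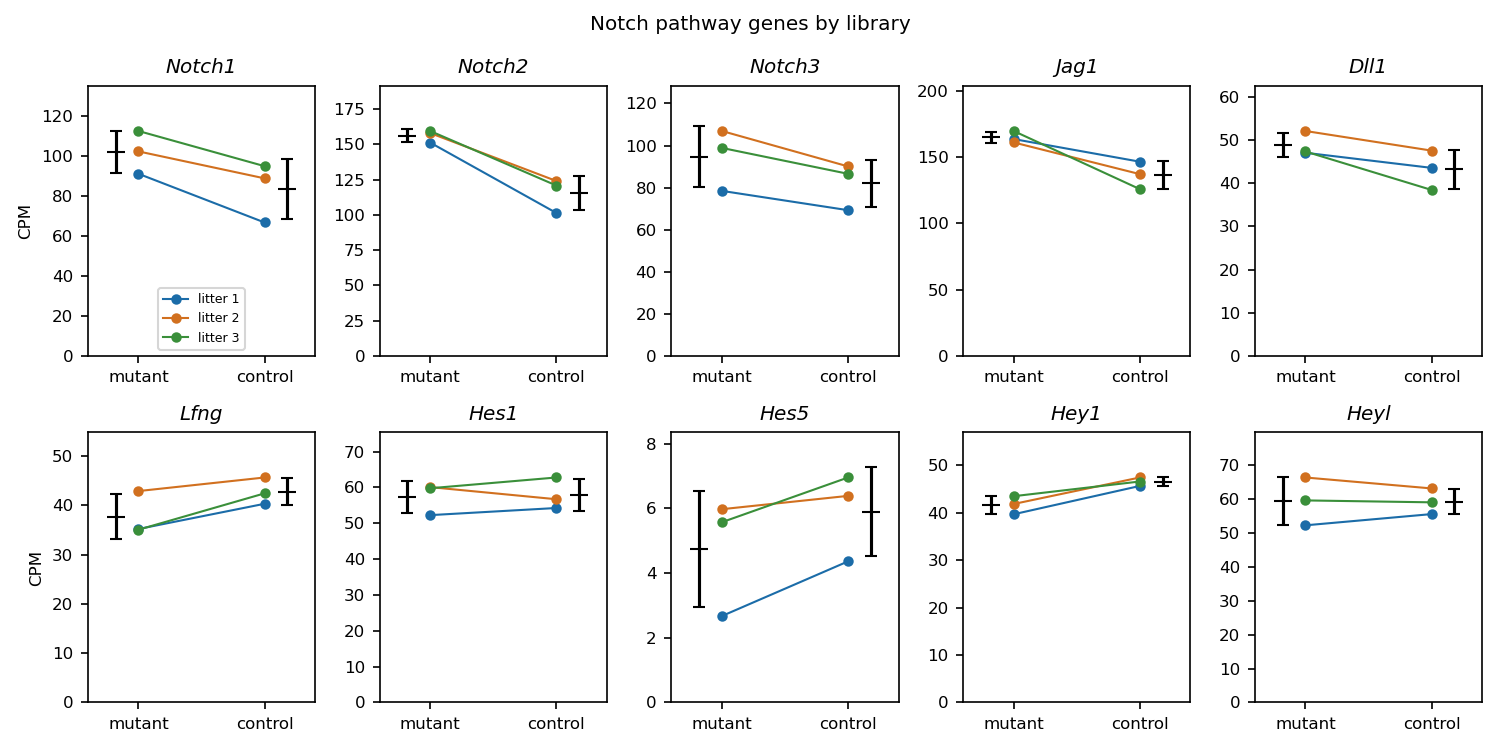
CPM of each of the 10 Notch pathway genes in every library, mutant left and control right, with a line joining the 2 libraries of a litter; black marks give the group mean and bars the SD (n = 3). All 3 lines of Notch1, Notch2, Notch3, Jag1 and Dll1 lie higher at the mutant end, and all 3 lines of Lfng, Hes5 and Hey1 lie lower there.

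Of the ligands, Jag1 rose and Dll1 did not pass the test. Jag1 (chr2:137081456-137116644), a ligand best known for its part in bile duct and vessel formation, stood at 164, 161 and 170 CPM in mutant libraries, against 146, 137 and 126 CPM in control libraries. The groups did not overlap, and the difference was 0.16, 0.23 and 0.43 on the log2 scale in litters 1, 2 and 3. The log2 change was 0.27 (SE 0.057, 95% interval 0.14 to 0.40), with an adjusted p of 0.0221 paired and 0.227 unpaired. Dll1 (chr17:15367354-15376872), a Delta-like ligand of the renal vesicle, had 47.1, 52.1 and 47.4 CPM in mutant libraries and 43.6, 47.6 and 38.4 CPM in control libraries. It was higher in the mutant of 3 of 3 litters, with overlapping groups, a log2 change of 0.18 (SE 0.061) and an adjusted p of 0.0948 paired.

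Lfng (chr5:140607320-140615545) encodes a fringe glycosyltransferase of the Golgi, which adds sugars to Notch receptors and alters their response to Delta-like and Jagged ligands. Its values were 35.2, 42.9 and 35.0 CPM in mutant libraries and 40.3, 45.6 and 42.4 CPM in control libraries. Mutant libraries 1 and 3 lay below every control library, and mutant library 2 did not. With a log2 difference of -0.18 (SE 0.062) the test was not passed (adjusted p = 0.0903 paired), although the mutant was lower in 3 of 3 litters.

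None of the 4 target genes passed. Hes5 (chr4:154960923-154962371), a repressor of the basic helix-loop-helix class that is read as a sign of Notch activity in the forming nephron, was the lowest and most variable of the 10 genes. It held 2.67, 5.97 and 5.57 CPM in mutant libraries 1, 2 and 3 and 4.36, 6.38 and 6.95 CPM in control libraries 1, 2 and 3, which are 129, 328 and 260 reads against 191, 281 and 344 reads. The mutant was lower in each litter, by 0.62, 0.089 and 0.30 on the log2 scale, and both libraries of litter 1 held less than any other library, so the groups overlap. The log2 difference was -0.33 (SE 0.13, 95% interval -0.63 to -0.035), with an adjusted p of 0.133.

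Hey1 (chr3:8663359-8667256), a repressor of the endothelium and other tissues, stood at 39.6, 41.8 and 43.5 CPM in mutant libraries and 45.6, 47.4 and 46.6 CPM in control libraries. It is the gene of the 10 whose mutant libraries all lay below all control libraries, yet its difference of -0.16 on the log2 scale (SE 0.057) did not pass (adjusted p = 0.105). Hes1 (chr16:30064384-30067796), a target of Notch and of other pathways, had 52.3, 60.1 and 59.8 CPM in mutant and 54.3, 56.7 and 62.8 CPM in control libraries. Heyl (chr4:123233556-123249875), a target in pericytes and muscle, had 52.3, 66.4 and 59.6 CPM in mutant and 55.6, 63.2 and 59.1 CPM in control libraries. For both genes the direction differed between litters, and the 95% intervals of the log2 difference ran from -0.14 to 0.11 for Hes1 and from -0.13 to 0.13 for Heyl.

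Counted together, 4 of the 10 Notch pathway genes rose and 0 fell by limma, and 8 of the 10 had an unadjusted p below 0.05, as did 4022 of all 13766 tested rows. In the same comparison 11.4% of tested rows were called, 7.93% higher and 3.51% lower. The median log2 change of the 10 genes was 0.089, against 0.012 over all tested rows. The direction was the same in all 3 litters for 8 of the 10, higher in 5 and lower in 3, against 50.5% of all tested rows (28.3% higher and 22.2% lower). The groups did not overlap for Notch2, Jag1 and Hey1, 3 of the 10, against 17.3% of tested rows, 10.2% with the mutant higher and 7.12% with the mutant lower. Without the pairing limma called 0 of the 10, of which 2 had an unadjusted p below 0.05, and 0.559% of tested rows.

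**Figure D2:**
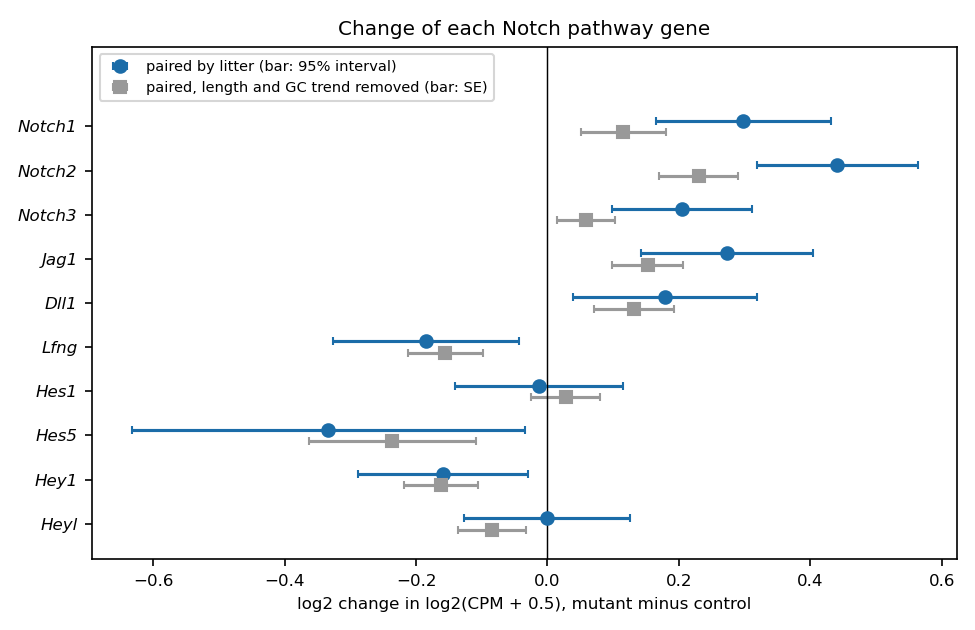
Log2 change of log2(CPM + 0.5), mutant minus control, for each Notch pathway gene paired by litter (circles, bars are 95% intervals) and after correction of each library for transcript length and GC content (squares, bars are SE). Receptors and ligands lie right of 0 in both, and the 3 receptors and Jag1 lie nearer to 0 after the correction.

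The genes that rose are encoded by long messages, and change followed message length across the whole table. The longest coding transcripts of Notch1, Notch2 and Notch3 measure 9488, 10500 and 8016 bases, within the longest of 10 length classes of 1351 or 1352 rows each, where the median log2 change was 0.17 and 31.0% of rows were called higher. Jag1, at 5612 bases, is in class 9, where the median was 0.10 and 15.5% were called higher. Hes5, at 1273 bases, is in class 1, the shortest, where the median was -0.11. Lfng and Hey1, at 2305 and 2423 bases, are in class 4, whose median was -0.013. Notch2 (0.44), Notch1 (0.30), Jag1 (0.27) and Dll1 (0.18) lay above the upper quartile of their class, and Hes5 (-0.33), Lfng (-0.18) and Hey1 (-0.16) below the lower quartile.

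**Figure D3:**
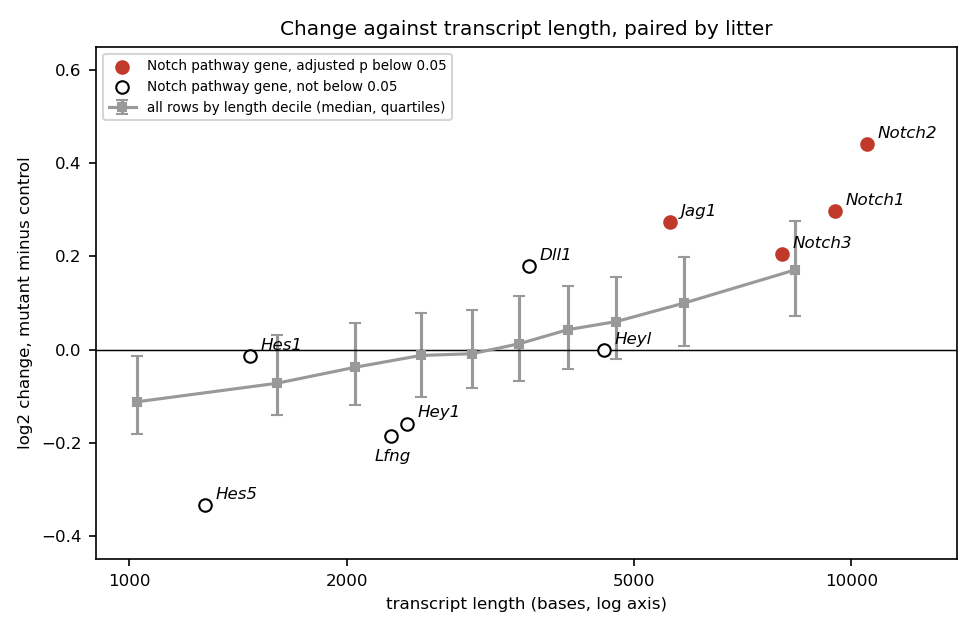
Log2 change, mutant minus control and paired by litter, against transcript length on a log axis, for the Notch pathway genes (filled where the adjusted p was below 0.05) and for all rows by length class (grey squares are medians, bars quartiles). The grey medians climb from -0.11 to 0.17, and Notch2, Notch1, Jag1 and Dll1 lie above the bars while Hes5, Hey1 and Lfng lie below them.

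When each library was corrected for its smooth dependence on length and GC content, 0 of the 10 genes were called by limma paired by litter, against 5.85% of 13517 rows, and 4 of the 10 had an unadjusted p below 0.05. Corrected and unpaired, 0 of the 10 and 1.51% of rows were called, with 2 of the 10 at an unadjusted p below 0.05. Paired and corrected, Notch2 had a log2 change of 0.23 (SE 0.060, adjusted p = 0.0599), Jag1 of 0.15 (adjusted p = 0.129), Notch1 of 0.12 (0.316) and Notch3 of 0.058 (0.451). Lfng and Hey1 moved little, with log2 differences of -0.16 each, and Hes5 stood at -0.24. When litter 1 was left out, with pairing and no correction, 1 of the 10 was called, Notch2 (adjusted p = 0.0244), beside 2.44% of all rows, and Notch1, Notch3 and Jag1 had adjusted p values of 0.136, 0.148 and 0.0524. Without litter 2, 3 of the 10 and 10.3% of rows were called, and Notch3 lost its call (0.0891). Without litter 3 the same 4 genes and 16.7% of rows were called.

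Levels can be compared between genes per length, as CPM per kilobase of the longest coding transcript. Hes1 was highest, at 39.1 ± 3.02 CPM per kilobase in mutant and 39.4 ± 2.99 in control kidneys (SD, n = 3 each), followed by Jag1 at 29.4 ± 0.790 in mutant and 24.3 ± 1.85 in control kidneys. Hey1 had 17.2 ± 0.788 in mutant and 19.2 ± 0.369 in control kidneys and Lfng 16.4 ± 1.95 in mutant and 18.6 ± 1.17 in control kidneys, levels within each other's spread. Below these, Notch2 had 14.9 ± 0.418 in mutant and 10.99 ± 1.17 in control kidneys, Dll1 13.6 ± 0.791 in mutant and 12.1 ± 1.28 in control kidneys, and Heyl 13.1 ± 1.56 in mutant and 13.1 ± 0.836 in control kidneys. Notch3 had 11.8 ± 1.83 in mutant and 10.2 ± 1.39 in control kidneys, and Notch1 10.8 ± 1.13 in mutant and 8.82 ± 1.57 in control kidneys. In control kidneys Heyl and Dll1 lay above Notch2, Notch3 and Notch1, with neighbours that do not differ beyond their spread, and in mutant kidneys the mean of Notch2 lay above those of Dll1 and Heyl. Hes5 was lowest in both, at 3.72 ± 1.42 in mutant and 4.63 ± 1.07 in control kidneys.

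Most other genes of the pathway did not pass. Of 67 further pathway genes listed by role, 61 had a tested row, 6 rose and 1 fell, and 21 had an unadjusted p below 0.05, beside 4022 of all 13766 tested rows. Their median log2 change was 0.075, or -0.00087 after the length and GC correction. The 7 calls are a share close to the 11.4% of all tested rows, and unpaired 0 were called by limma, with 5 at an unadjusted p below 0.05. Without litter 1 the count was 1, and under either of 2 other scalings 4 were called higher and 2 lower.

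Among receptors and ligands outside the 10, Notch4, the endothelial receptor, had 36.5 ± 6.15 CPM in mutant and 32.9 ± 4.66 CPM in control kidneys (adjusted p = 0.197). Dll4, the ligand of arterial endothelium, had 18.5 ± 3.49 CPM in mutant and 17.2 ± 1.45 CPM in control kidneys (adjusted p = 0.518). Jag2 had 15.5 ± 1.77 CPM in mutant and 15.7 ± 3.60 CPM in control kidneys (0.987). None of these 3 passed. The other fringe genes, Mfng and Rfng, had log2 differences of 0.22 (adjusted p = 0.127) and -0.092 (0.428), and 0 of 6 genes of Notch glycosylation and 0 of 6 of ligand endocytosis were called by limma.

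In the cleavage step 1 of 10 genes passed. Psenen, a small subunit of gamma-secretase, fell to 47.0, 51.4 and 45.4 CPM in mutant libraries, against 52.8, 59.3 and 55.6 CPM in control libraries, without overlap. Its log2 change was -0.22 (adjusted p = 0.0391), or -0.14 (0.141) after the length and GC correction. Its message, of 708 bases, is the shortest in the pathway list.

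Of the 7 measured genes of the nuclear complex 2 rose, both acetyltransferases that act as co-activators. Kat2b stood at 47.6, 35.3 and 41.8 CPM in mutant libraries and 38.4, 28.6 and 33.8 CPM in control libraries (log2 change 0.30, adjusted p = 0.0159). Ep300, whose row is joined with a small overlapping gene, averaged 126 ± 14.9 CPM in mutant and 103 ± 14.2 CPM in control kidneys (0.29, adjusted p = 0.00794). After the length and GC correction neither was called: Kat2b stood at 0.23 (adjusted p = 0.0509) and Ep300, with a message of 9566 bases, at 0.089 (0.242). Rbpj itself, the DNA-binding partner of all Notch receptors, had 106 ± 5.21 CPM in mutant and 103 ± 4.82 CPM in control kidneys, with a 95% interval of the log2 difference from -0.063 to 0.15.

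Among the co-repressor genes, Tle3, a Groucho-type co-repressor that Hes and Hey proteins recruit, averaged 209 ± 28.4 CPM in mutant and 169 ± 16.2 CPM in control kidneys (log2 change 0.30, adjusted p = 0.00721), and after the length and GC correction it stood at 0.20 and was still called (0.0323). The nuclear receptor co-repressor Ncor1 had a log2 change of 0.17 (adjusted p = 0.0437), and of -0.017 after the correction, where it was not called. Under the correction Ctbp1 and Tle4, named here after their values were seen, were called lower, at -0.19 (adjusted p = 0.0295) and -0.23 (0.0433).

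Of 12 genes of receptor turnover and inhibition 1 rose, Dtx3l, a ubiquitin ligase of the Deltex family. It had 6.25, 6.17 and 7.65 CPM in mutant libraries and 4.82, 4.77 and 4.67 CPM in control libraries (log2 change 0.45, adjusted p = 0.0437), and after the correction it was not called (0.35, adjusted p = 0.104). Nrarp, a small inhibitor that is itself switched on by Notch, had 31.0 ± 3.96 CPM in mutant and 33.7 ± 2.33 CPM in control kidneys (adjusted p = 0.330) and was higher in the mutant of 1 of 3 litters. Neither of the 2 measured relatives of the target genes passed.

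**Figure D4:**
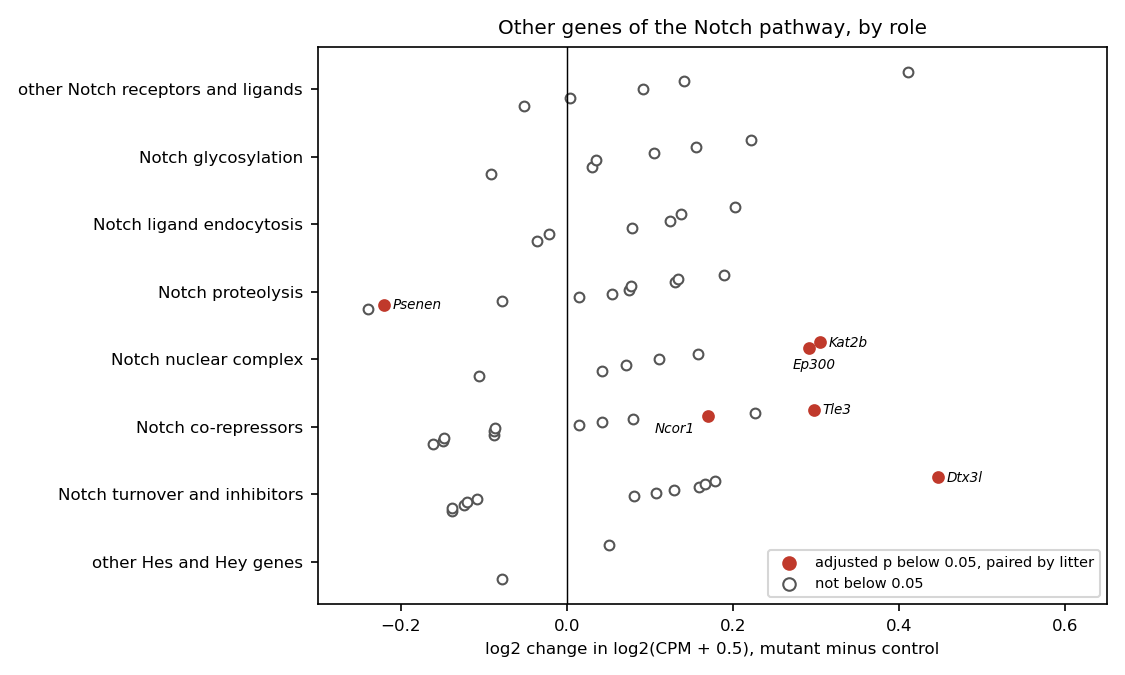
Log2 change of log2(CPM + 0.5), mutant minus control and paired by litter, for other tested genes of the Notch pathway, grouped by role, 1 of the 61 not shown, with red points where the adjusted p was below 0.05. The red points right of 0 are Dtx3l, Kat2b, Tle3, Ep300 and Ncor1, and Psenen is the red point left of 0.

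Markers of some, but not all, of the cell types that use these genes also changed when paired by litter. Beside the counts that follow, 7.93% of all tested rows were called higher and 3.51% lower in this paired fit. Of 10 endothelial markers 5 rose (Cdh5, Kdr, Flt1, Tek and Tie1, the junction and growth factor receptor genes of endothelium) and 0 fell, and their summed level was 1209 to 1253 CPM in mutant and 1092 to 1105 CPM in control libraries. After the length and GC correction 2 of the 10, Cdh5 and Kdr, were still called, beside 5.85% of 13517 rows. Flt1 then stood at 0.044 in place of 0.20 on the log2 scale. Kdr averaged 168 ± 8.83 CPM in mutant and 134 ± 1.02 CPM in control kidneys. Of 10 pericyte and smooth muscle markers 0 rose and 1, Rgs5, fell, with summed levels of 733 to 813 CPM in mutant and 764 to 786 CPM in control libraries. The median log2 change of this list was -0.0022, or -0.034 after the length and GC correction. Rgs5 had overlapping groups and an adjusted p of 0.0496 by limma paired, 0.0691 after the correction and 0.601 unpaired. Of 10 nephron progenitor markers 6 fell and 0 rose, with summed levels of 511 to 522 CPM in mutant and 747 to 761 CPM in control libraries. Capn6 had the largest fall in CPM of the list, to 136 ± 6.51 CPM in mutant kidneys, against 286 ± 6.89 CPM in control kidneys. Osr1, Gdnf, Crym and Itga8 did not pass. The median log2 change of the progenitor list was -0.37, or -0.38 after the length and GC correction.

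Of 10 early nephron markers 3 rose and 1 fell. Wnt4, a signal that drives the epithelial transition, averaged 64.3 ± 7.72 CPM in mutant and 52.9 ± 5.71 CPM in control kidneys, and Cdh6 and Ccnd1 rose as well. Fgf8, a growth factor of the renal vesicle, fell to 6.77 ± 1.78 CPM in mutant kidneys, against 10.2 ± 0.997 CPM in control kidneys (log2 change -0.58, adjusted p = 0.0199), and Lhx1 did not pass. The summed level of the list was 607 to 705 CPM in mutant and 574 to 654 CPM in control libraries. Of 10 podocyte markers Col4a3 and Npnt rose and Nphs1 and Wt1 fell, with summed levels of 1066 to 1116 CPM in mutant and 948 to 1089 CPM in control libraries. Npnt, the highest of the list, weighs most in these sums, at 417 ± 22.3 CPM in mutant and 313 ± 18.8 CPM in control kidneys. The median log2 change of the podocyte list was -0.044, or -0.149 after the length and GC correction.

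Of 10 proximal tubule markers 6 rose (Lrp2, Cubn, Aqp1, Hnf4a, Pck1 and Keg1) and 0 fell, with summed levels of 934 to 1143 CPM in mutant and 754 to 865 CPM in control libraries. Pck1, an enzyme of glucose synthesis, averaged 34.6 ± 6.76 CPM in mutant and 11.9 ± 1.68 CPM in control kidneys. Of 9 tested stromal markers 4 rose (Foxd1, Pdgfra, Fat4 and Ntn1) and 0 fell, with summed levels of 1724 to 1957 CPM in mutant and 1366 to 1541 CPM in control libraries. Of 10 markers of ureteric bud and collecting duct 3 rose (Ret, Wnt9b and Krt18) and 0 fell. Corrected for length and GC content and paired, 3 proximal tubule, 3 stromal and 3 ureteric markers were called higher. Lrp2, Cubn, Hnf4a, Foxd1 and Ret lost their calls, and Krt8, a ureteric marker not called before, gained one. In the same fit 2 early nephron and 2 podocyte markers were called higher, 1 early nephron and 2 podocyte markers lower, and 6 progenitor markers lower.

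Unpaired, limma called 3 of the 10 progenitor markers lower and 1 podocyte, 1 proximal tubule and 3 stromal markers higher. It called 0 of the endothelial, pericyte, ureteric and early nephron markers, and 0.559% of all tested rows. The part of these cell types in the values of the Notch genes was not tested.

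Over the 6 libraries, the rows whose profile was nearest to that of Notch2 were Fn1 (fibronectin), Fat1 (an atypical cadherin) and Scube3, with root mean square differences of 0.045, 0.046 and 0.054 on the log2 scale after each row was centred on its own mean. Those nearest to Jag1 were Gpr137b, Plekhb1 and Mdn1, at 0.025, 0.032 and 0.032. The search covered 12960 rows, and with 6 libraries such closeness is a description only.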

How the data were processed

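The deposited file holds CPM values per gene, which the authors scaled to each library's total. Per the submitters' processing notes, TopHat2 2.0.9, Picard and SAMtools were run, with build NCBIM37. Which program counted reads, on which annotation and with what use of strand is not given in the sources used here. Reads of a gene and of an antisense partner therefore cannot be told apart. Every value was a whole number of reads within 0.01 reads, which gave the library totals. The listed rows left out 0.105% to 0.117% of each total. Symbols and transcripts came from GENCODE M21 (GRCm38); 270 of 13965 rows matched no symbol.

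The 13766 rows that reached 1 CPM in 3 or more libraries were tested on log2(CPM + 0.5) in a model of genotype with litter as a block, using limma 3.58.1 (R 4.3.3) and its mean-variance trend. Benjamini-Hochberg adjustment ran over all tested rows, and the threshold for a call was an adjusted p of 0.05. Fold changes are on the log2(CPM + 0.5) scale and understate changes of low genes. The labels give the litters, so the pairing comes from the design. Deviations from the group means correlated across genes at 0.619, 0.446 and 0.312 within litters 1, 2 and 3. Between litters they correlated at -0.514 to 0.172. Within a group the deviations of a row cancel out, so the between-litter values are not independent of the within-litter ones. The alternatives were no block, other pseudocounts (0.1 and 1), filters and scalings, removal of each library's spline trend (4 degrees of freedom each) on transcript length and GC content, and leaving out litters or libraries. The code was tested on simulated data. The named genes are the 10 members, every other pathway gene called except 1 that is not reported here, and Notch4, Dll4, Jag2, Rbpj, Nrarp, Mfng and Rfng. Ctbp1 and Tle4 were named outside this rule, after their values were seen. For markers, the rule named the genes called in the early nephron, endothelial, pericyte and smooth muscle, and podocyte lists. Cited1, Capn6 and the other progenitor genes, Lhx1, and the proximal tubule, stromal and ureteric genes were named outside it. Members and lists were chosen with earlier results of these data known. No column of the table was left unused.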

Additional observations from a re-analysis of the deposited data

How the results depend on the processing

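Without the replicate block, that is without the pairing by litter, 77 rows were called across the table in place of 1574, 0 of the 10 Notch pathway genes in place of 4 and 0 of the 61 others in place of 7. The length and GC correction, with litter still as a block, gave counts of 791 (402 higher and 389 lower), 0 and 3. With the correction and no block, an alternative chosen after seeing the data, they were 204, 0 and 0. Leaving out 1 litter in turn gave 336 to 2295 rows, 1 to 4 Notch pathway genes and 1 to 11 others, and leaving out 1 library in turn with no block gave 69, 36, 23, 103, 28 and 46 rows without mutant library 1, 2 or 3 or control library 1, 2 or 3, and 0 and 0 genes. The cause was not tested. With pseudocounts of 0.1 and 1, the filters and the scalings, 4 Notch pathway genes were called each time, 6 to 9 of the others and 1502 to 1590 rows, and no call on the 10 genes changed.

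Dll1, Lfng, Hes5 and Hey1 kept their direction and were called in 0 of 18 alternatives, while Hes1 turned round in 6 and Heyl in 3. Hes1 had 0.028 with the length and GC correction with or without the block, 0.0064 without litter 1, -0.0618 without litter 2, 0.0147 without litter 3, and -0.059 to 0.052 unpaired with a library left out, 0.0454 of them without control library 3. Heyl had 0.0425 without litter 1 and -0.0371 without litter 2, and -0.084 to 0.087 unpaired with a library left out, 0.0455 of them without control library 2. Hes5, at 129 to 344 reads, was the least precise, and its 95% interval was the widest of the 10. The planned count-based tests were not run.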
